A study of Mus musculus with 28 samples.

Results

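The genes described here are 56 genes of ribosome biogenesis and of the nucleolus, the nuclear compartment in which ribosomal RNA is made and assembled. They were taken by symbol from a list of known factors of the pathway, drawn up with earlier results of these data known, and 56 of 56 were found among the 13519 genes with counts. They comprise 6 genes of RNA polymerase I transcription, 5 nucleolar proteins with several roles, 4 core or associated proteins of box C/D small nucleolar ribonucleoproteins (snoRNPs), 4 of box H/ACA snoRNPs, 21 factors of the small ribosomal subunit and 16 of the large subunit. The change from EtOH to 4-HT was compared between colon organoids of 4 genotypes, and with and without the mutant *Braf* and *Trp53* alleles.

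Ribosome production starts when RNA polymerase I, guided by Ubtf and Rrn3, copies the ribosomal DNA repeats into a long precursor RNA. SnoRNPs then guide chemical marks onto this RNA, with box C/D particles adding methyl groups and box H/ACA particles converting uridine to pseudouridine, while the small subunit processome and the large subunit factors fold and cut it and add ribosomal proteins. In the intestine the pathway is known to be most active in dividing crypt cells, and Myc, a transcription factor downstream of Wnt signalling, is known as one of its main activators.

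Organoids are cultures of intestinal epithelium grown in Matrigel, and these came from the colon of C57BL/6N mice. Every genotype carried *Apc* flox/flox and the VillinCreERT2 transgene, in which the *Villin* promoter limits the tamoxifen-inducible Cre to intestinal epithelium. AC organoids had no further allele, PAC organoids had *Trp53* LSL-R172H/+, BAC organoids had *Braf* floxV600E/+, and BPAC organoids had both. Each culture was given EtOH, the vehicle, or 3.5 µM 4-HT, the active tamoxifen metabolite, for 24 hours, and the RNA was taken 3 days after that. EtOH-treated organoids carry the same unrecombined alleles and serve as the controls. AC came from 1 donor mouse and PAC, BAC and BPAC from 2 donors each, with 2 cultures (duplicates 1 and 2) per donor, so that 14 cultures gave 28 samples. With these few donors, p-values measure the spread between cultures, which in AC came from the same mouse. In PAC, BAC and BPAC, too, cultures of the same mouse were treated as separate replicates.

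Counts on genes ranged from 20577276 to 40068718 per sample, and no member had fewer than 208 counts in any sample. *Apc* transcripts were 0.67 to 0.92 higher on the log2 scale with 4-HT, and *Trp53* transcripts 0.74 to 1.84 higher. None of these values checks the recombination itself, since counts over a whole gene do not separate the recombined from the unrecombined allele. All 7 epithelial markers were counted, with a summed level of 13354 to 21846 CPM (counts scaled to the library total as adjusted by the trimmed mean of M-values, TMM) with EtOH and 11357 to 14964 CPM with 4-HT. Of the fibroblast markers 0 of 6 were among the genes with counts here, of the immune markers 2 of 5 (at most 6.13 CPM together) and of the endothelial markers 1 of 3 (*Pecam1*, at most 2.71 CPM). No gene with counts summed to fewer than 116 over all samples, so the absent markers may still have had some reads. The 4-HT samples of duplicate 1 from the PAC donors stood apart. Each held *Xist* (25.2 and 22.0 CPM) together with Y-linked transcripts (62.3 and 61.3 CPM), whereas with EtOH the same cultures held mainly 1 or the other. Whether each of these samples held cells of 1 donor was not tested, and main results in PAC are therefore also given without the duplicate 1 cultures.

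The promoters of members are shown first because the letters CACGTG, the E-box that Myc with its partner Max is known to bind, could be counted in them. RefSeq windows on GRCm38.p6, from 250 bases before to 50 bases after the start, were matched for 49 of 56 members. CACGTG reads the same on both strands, and 12 of 49 windows held it (24.5%), against 1024 of 10114 windows of genes in the count table (10.1%) and 1957 of 27025 windows in all (7.24%). Within the 250 bases before the start the shares were 5 of 49 (10.2%), 8.37% and 6.05%. The stretches upstream of the start of *Rrn3*, *Nol11* and *Nop2* that hold it are printed 5′ to 3′ on the strand of the gene, with the E-box in capitals. They were chosen because the letters lie before the start and no annotated exon overlaps them. *Rrn3*, whose product brings RNA polymerase I to its promoter, held the letters from bases -215 and -48 relative to the start, *Nol11*, a small subunit processome gene, from base -43, and *Nop2*, which encodes a methyltransferase of the large subunit, from base -60. The windows are chr16:13780469-13780698 (plus strand), chr11:107189382-107189511 (minus strand) and chr6:125131753-125131882 (plus strand).
Rrn3: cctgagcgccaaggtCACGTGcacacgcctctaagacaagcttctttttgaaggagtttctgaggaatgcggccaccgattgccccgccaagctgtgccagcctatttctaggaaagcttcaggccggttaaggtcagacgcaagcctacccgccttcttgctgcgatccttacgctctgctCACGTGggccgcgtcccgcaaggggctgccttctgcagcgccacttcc
Nol11: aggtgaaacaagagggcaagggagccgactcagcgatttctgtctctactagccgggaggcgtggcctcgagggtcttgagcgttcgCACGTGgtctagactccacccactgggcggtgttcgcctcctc
Nop2: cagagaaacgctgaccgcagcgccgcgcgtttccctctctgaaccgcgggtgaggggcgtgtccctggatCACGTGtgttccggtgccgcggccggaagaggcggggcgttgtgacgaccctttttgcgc

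The changes of members with and without these letters were set side by side, with no test. Over the 12 members with an E-box in the window the median log2 changes in AC, PAC, BAC and BPAC were 0.61, 0.45, 0.88 and 0.93, and over the 37 without it 0.61, 0.64, 1.00 and 1.02. A match of letters is a description of the sequence only.

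Members of each role group rose with 4-HT in each genotype. The fitted change, on the log2 scale, was above 0 for 56 of 56 members in each of the 4 genotypes. By edgeR's quasi-likelihood test, with Benjamini-Hochberg adjusted p-values across the whole table and a threshold of 0.01, AC had 26 members that rose, PAC 49, BAC 54 and BPAC 53, and 0 fell. Of all genes tested, 3% rose and 4.25% fell in AC, while PAC had 11.2% and 12.2%, BAC 20.3% and 21.5%, and BPAC 22% and 23%. AC had fewer cultures than the other genotypes, so its count is not directly comparable with theirs. The median log2 change of the members was 0.61 in both AC and PAC and reached 0.97 in BAC and 0.98 in BPAC, beside medians between -0.04 and 0.01 over all genes. In bulk samples, more cells of a type and more RNA per cell cannot be told apart.

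The counts in AC and PAC depended on few cultures. With the culture as a block, which pairs the EtOH and 4-HT samples of a culture, 42 members rose in AC, where 7.45% of all genes did. Without AC replicate 1 or without AC replicate 2, 0 members passed in AC by edgeR, in fits where the remaining AC samples were assumed to vary like the other groups. In these fits 42 and 37 members had an unadjusted p under 0.05, 56 of 56 changes were above 0, and 0 and 3 of all genes passed as higher. With the block 54 members rose in PAC and 55 in both BAC and BPAC, beside 16.5%, 25.3% and 26.7% of all genes. The block pairs the duplicate 1 samples of PAC by label, although their donors are unclear. In PAC, 32 members passed without replicate 2. Without the duplicate 1 cultures 1 member passed in PAC, *Nol10* (log2 change 0.84 ± 0.15, SE, edgeR, adjusted p = 0.00737), beside 0.163% of all genes. The PAC counts of each role group below were 0 in that fit, other than this gene of the small subunit, while 47 members had an unadjusted p under 0.05 by edgeR, the median log2 change was 0.46 and 56 of 56 changes were above 0.

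**Figure D1:**
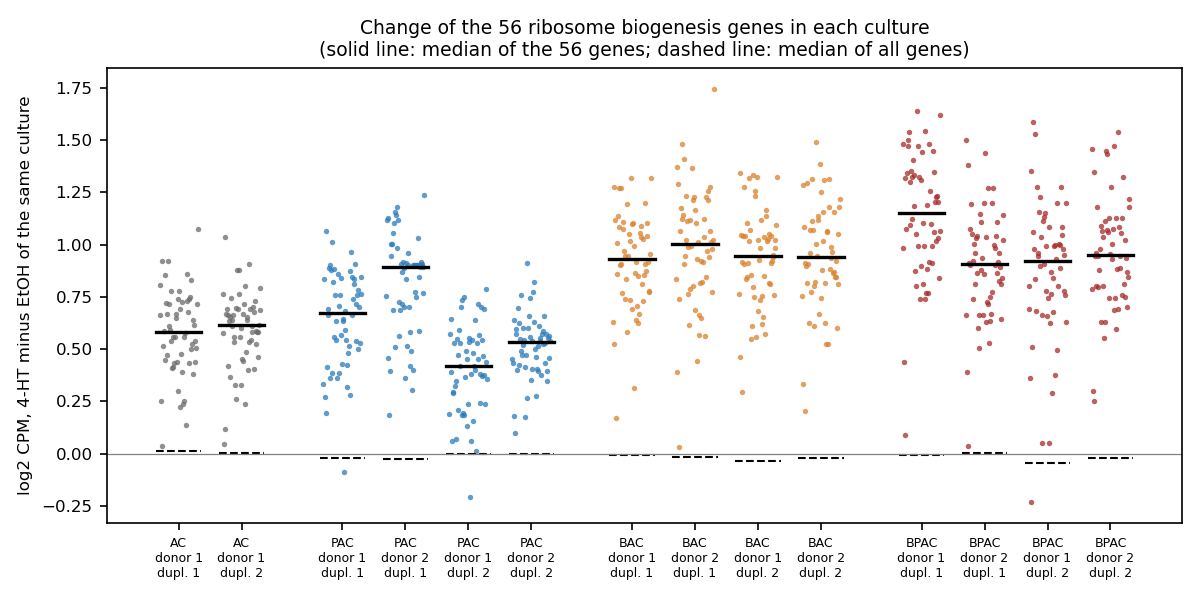
Change of the 56 members in each of the 14 cultures, as log2 CPM with 4-HT minus EtOH in the same culture; each point is 1 gene, the solid line is the median of the 56 genes and the dashed line the median of all genes. The medians lie between 0.42 and 0.89 in AC and PAC and between 0.91 and 1.15 in BAC and BPAC, while the medians of all genes lie near 0.

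The direction was the same in each culture. From 55 to 56 of 56 members were higher with 4-HT in each of the 14 cultures. The exceptions were *Utp20* in both cultures of PAC donor 1 and *Ubtf* in duplicate 2 of BPAC donor 1. The median change of the members was 0.58 and 0.61 in the AC cultures and 0.67, 0.89, 0.42 and 0.53 in the PAC cultures. It was 0.93, 1.00, 0.95 and 0.94 in the BAC cultures and 1.15, 0.91, 0.92 and 0.95 in the BPAC cultures. Each BAC and BPAC culture lay above each AC and PAC culture in this median. Within PAC the cultures of duplicate 1, with the unclear donors, had the higher medians. As a mean over cultures the median was 0.60 ± 0.02 for AC (SD, n = 2), and for PAC, BAC and BPAC it was 0.63 ± 0.20, 0.96 ± 0.03 and 0.98 ± 0.12 (SD, n = 4 each).

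The samples of the 2 treatments did not overlap for most members. Each 4-HT sample lay above each EtOH sample for 54 of 56 members in AC, where this held for 29.4% of all genes, and for 52 in PAC, where it held for 16%. In the duplicate 2 cultures of PAC alone it held for 54 members, beside 28.6% of all genes. It held for 54 members in BAC, beside 25.7% of all genes, and for 53 in BPAC, beside 22.5%. Across the genotypes, 26 members passed the threshold in each of the 4, among them *Ncl*, *Nolc1*, *Nop56*, *Dkc1*, *Nol10*, *Wdr43*, *Rrp1b* and *Polr1e*, and 2.66% of all genes did so. The count of 26 rests on AC and PAC: it was 42 with the block, beside 6.38% of all genes, 1 (*Nol10*) without the duplicate 1 cultures of PAC, and 0 without either AC culture, where 0 members passed in AC. *Ubtf* and *Utp20* passed in none, but with the block *Utp20* passed in BAC and BPAC (edgeR, adjusted p = 0.00252 and 0.00319).

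**Figure D2:**
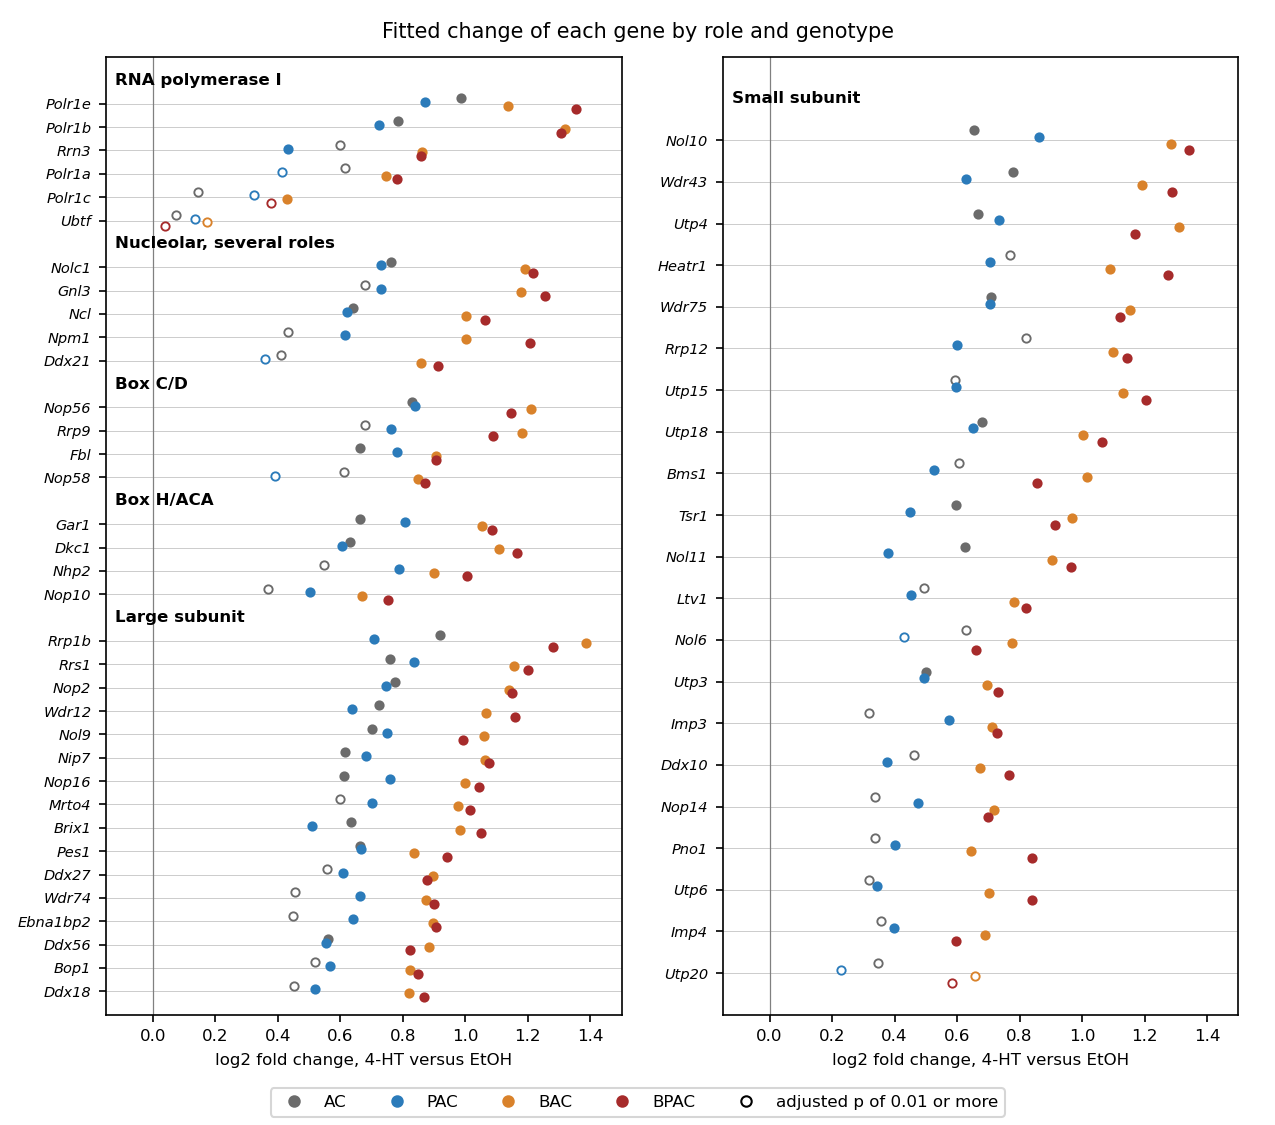
Fitted log2 fold change of each member with 4-HT against EtOH, by role, with 1 point per genotype; filled points have an adjusted p under 0.01 and open points do not. *Ubtf*, between 0.04 and 0.17, and *Utp20* are open in every genotype, and BAC and BPAC points lie to the right of AC and PAC points for most genes.

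Levels per length, as CPM per kilobase of exon (RPKM), ranged over the members from 2.45 for *Wdr12* to 129 for *Npm1* in the mean of the EtOH samples, and from 4.69 to 239 for the same genes with 4-HT. *Npm1*, the histone chaperone nucleophosmin, was followed on this scale by *Nhp2* (101 RPKM with EtOH and 182 with 4-HT). Reads of *Npm1* are uncertain, since the gene has processed copies elsewhere in the genome.

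The RNA polymerase I genes moved unequally. Of the 6, AC had 2 that rose, PAC 3, BAC 5 and BPAC 4, and with the block AC had 4 and PAC 5. *Polr1e*, which encodes a subunit that helps the polymerase start and elongate (ENSMUSG00000028318, GRCm38 chromosome 4, 45018583 to 45036565), rose most on average. With EtOH it had 13.6 and 14.6 CPM in the AC cultures and 14.0, 13.4, 14.9 and 17.9 CPM in the PAC cultures, and with 4-HT 25.8 and 30.02 CPM and 29.5, 29.4, 23.3 and 28.03 CPM. The BAC values were 17.9, 16.4, 18.8 and 16.5 CPM with EtOH and 38.8, 40.3, 39.0 and 35.1 CPM with 4-HT, and in BPAC 16.8, 16.2, 13.8 and 14.7 CPM and 41.9, 42.2, 35.2 and 37.7 CPM. Here and below the PAC, BAC and BPAC values run in the order donor 1 and donor 2 of duplicate 1, then donor 1 and donor 2 of duplicate 2. The treatments did not overlap in any genotype, and each BAC and BPAC sample with 4-HT was above each AC and PAC sample with 4-HT. The log2 changes of *Polr1e* in AC, PAC, BAC and BPAC were 0.99 ± 0.14 (SE), 0.87 ± 0.10, 1.14 ± 0.10 and 1.36 ± 0.10 (edgeR, adjusted p = 0.00014, 2.55e-06, 3.5e-09 and 1.94e-10). Without the duplicate 1 cultures the change in PAC was 0.64 ± 0.14 (SE, edgeR, adjusted p = 0.0155).

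*Ubtf* encodes the factor that binds the ribosomal DNA promoter and keeps the repeats open (ENSMUSG00000020923, chromosome 11, 102304560 to 102319742), and it passed in no genotype. It had 144 and 126 CPM with EtOH and 148 and 136 CPM with 4-HT in AC, and 136, 137, 139 and 133 CPM and 156, 156, 145 and 143 CPM in PAC. In BAC it had 146, 155, 135 and 124 CPM with EtOH and 164, 158, 165 and 143 CPM with 4-HT, and in BPAC 157, 152, 151 and 131 CPM and 167, 156, 129 and 156 CPM. The treatments did not overlap in PAC and overlapped in the other genotypes. Its log2 change was 0.07 ± 0.12 (SE), 0.14 ± 0.08, 0.17 ± 0.08 and 0.04 ± 0.08 in AC, PAC, BAC and BPAC (edgeR, adjusted p = 0.726, 0.21, 0.0829 and 0.707), and without replicate 4 the value in BPAC was -0.03. In PAC without its duplicate 1 cultures *Ubtf* had 0.08 ± 0.13 (SE, edgeR, adjusted p = 0.741). *Polr1c*, a subunit shared with RNA polymerase III, passed in BAC alone, with a log2 change of 0.43 there and of 0.15, 0.32 and 0.38 in AC, PAC and BPAC. With the block it passed in PAC and BPAC too (edgeR, adjusted p = 0.000783 and 0.000108), and its PAC change without the duplicate 1 cultures was 0.28 ± 0.19 (SE, adjusted p = 0.381 without the block). *Polr1a*, the catalytic subunit, and *Rrn3* rose by 0.75 and 0.86 in BAC and by 0.78 and 0.86 in BPAC. *Polr1a* had 0.61 in AC and 0.41 in PAC and passed in neither (edgeR, adjusted p = 0.037 and 0.0249), and *Rrn3* had 0.60 in AC, which did not pass (adjusted p = 0.0203), and 0.43 in PAC, which did (adjusted p = 0.00842). With the block *Polr1a* passed in AC and PAC (edgeR, adjusted p = 0.00112 and 0.000468) and *Rrn3* in AC (adjusted p = 0.00153). Without the duplicate 1 cultures the PAC changes of *Polr1a* and *Rrn3* were 0.32 and 0.45 (edgeR without the block, adjusted p = 0.296 and 0.091).

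**Figure D3:**
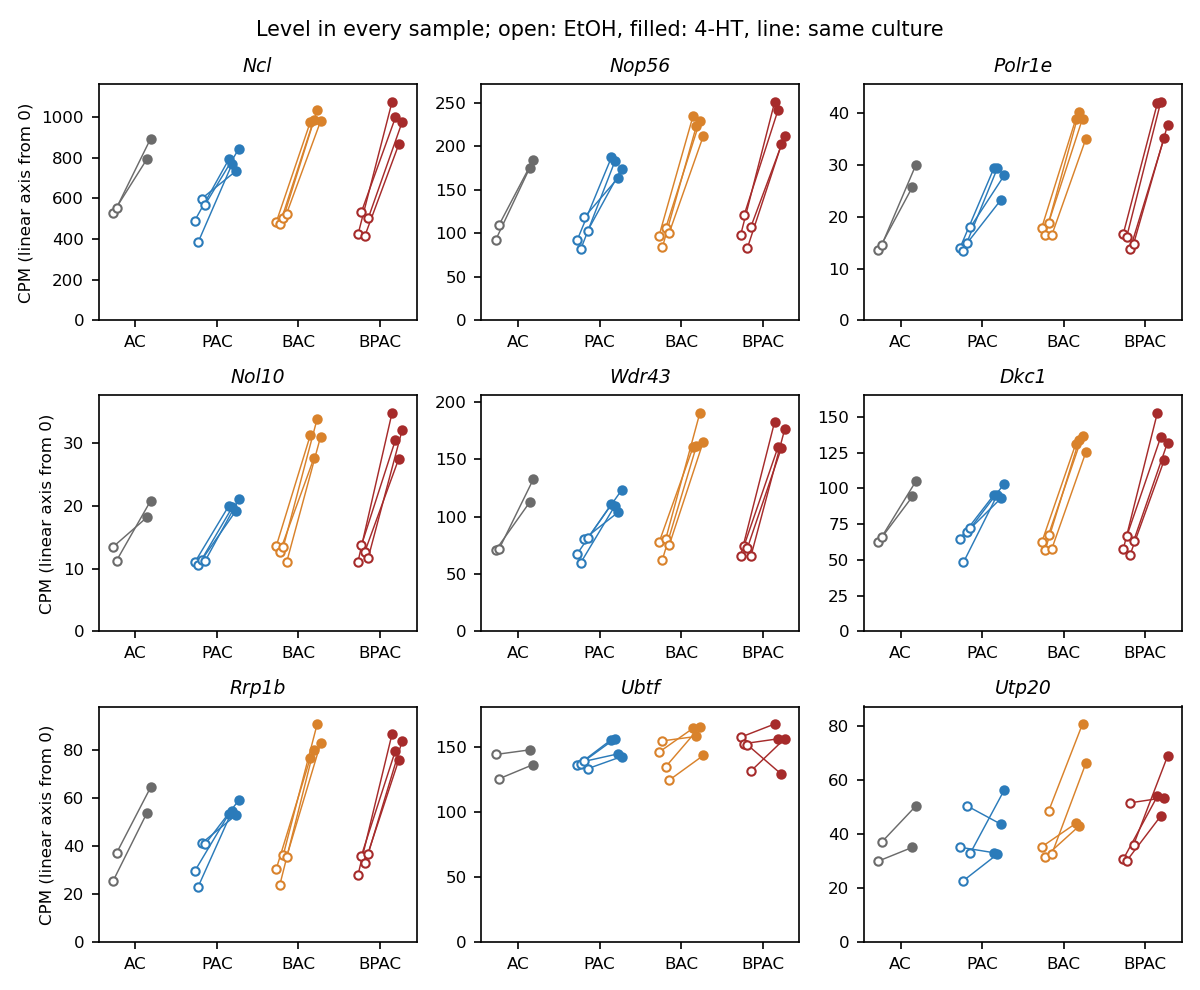
Level of 9 members in every sample in CPM, on linear axes that start at 0; open points are EtOH samples, filled points 4-HT samples, and a line joins the samples of a culture. In *Ncl*, *Nop56*, *Polr1e*, *Nol10*, *Wdr43*, *Dkc1* and *Rrp1b* the filled points lie above the open points of the same genotype, while those of *Ubtf* and *Utp20* overlap in most genotypes.

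The nucleolar proteins with several roles rose in 2 of 5 cases in AC, 4 in PAC, and 5 in both BAC and BPAC. *Ncl*, nucleolin, a major RNA-binding protein of the nucleolus (ENSMUSG00000026234, chromosome 1, 86344719 to 86359400), had 529 and 553 CPM with EtOH and 794 and 892 CPM with 4-HT in AC. In PAC it had 490.4, 384, 598 and 568 CPM with EtOH and 791, 769, 732 and 844 CPM with 4-HT. In BAC the levels were 485, 472, 502 and 525 CPM and 976, 985, 1034 and 979 CPM, and in BPAC 423, 533, 415 and 502 CPM and 1073, 997, 866 and 976 CPM. The treatments did not overlap in any genotype. The folds in AC, PAC, BAC and BPAC were 1.56, 1.54, 2.00 and 2.09 (edgeR, adjusted p = 0.00541, 0.000119, 4.33e-08 and 1.4e-08), and without the duplicate 1 cultures the fold of *Ncl* in PAC was 1.35 (edgeR, adjusted p = 0.0463). *Nolc1*, a chaperone of snoRNPs, had 95.5 and 98.4 CPM with EtOH and 173 and 156 CPM with 4-HT in AC, and 95.8, 90.2, 113 and 99.8 CPM and 177, 181, 141 and 162 CPM in PAC. It had 115, 107, 100.1 and 89.3 CPM and 245, 232, 243 and 219 CPM in BAC, and 96.9, 106, 98.0 and 94.1 CPM and 269, 242, 193 and 213 CPM in BPAC. It passed in all 4 genotypes without overlap. *Ddx21*, a helicase that couples RNA polymerase I and snoRNP work, had the smallest average change of this group. It passed in BAC and BPAC, with log2 changes of 0.86 ± 0.15 (SE) and 0.91 ± 0.15, and had 0.41 ± 0.21 in AC and 0.36 ± 0.15 in PAC (edgeR, adjusted p = 0.19 and 0.062, and 0.0397 and 0.00567 with the culture as a block). Without the duplicate 1 cultures *Ddx21* had 0.24 ± 0.19 in PAC (SE, edgeR, adjusted p = 0.461). The stem cell GTPase gene *Gnl3*, nucleostemin, had log2 changes of 0.68, 0.73, 1.18 and 1.25 and passed in all but AC, where its adjusted p was 0.0131 by edgeR and 0.0075 with the block.

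The snoRNP proteins rose in 2 of 4 cases each in AC for box C/D and box H/ACA, in 3 and 4 of 4 in PAC, and in 4 of 4 of both kinds in BAC and BPAC. With the block 4 of 4 box C/D genes rose in AC. *Nop56*, a scaffold protein of box C/D particles, had 92.7 and 110.1 CPM with EtOH and 176 and 185 CPM with 4-HT in AC, and 93.0, 82.0, 118 and 103 CPM and 187, 183, 164 and 175 CPM in PAC. The BAC values were 97.4, 84.2, 107 and 101 CPM and 235, 224, 229 and 212 CPM, and in BPAC 98.4, 121, 83.6 and 108 CPM and 251, 242, 203 and 212 CPM. No EtOH sample reached a 4-HT sample. Its partner *Nop58* moved less, with log2 changes in AC, PAC, BAC and BPAC of 0.61 ± 0.18 (SE), 0.39 ± 0.13, 0.85 ± 0.13 and 0.87 ± 0.13 (edgeR, adjusted p = 0.0243, 0.0214, 7.75e-06 and 4.69e-06). With the culture as a block its adjusted p was 0.000753 in AC and 0.000442 in PAC, and the PAC change without the duplicate 1 cultures was 0.35 ± 0.16 (SE, edgeR without the block, adjusted p = 0.196). *Fbl*, fibrillarin, the methyltransferase of these particles, changed by 0.66, 0.78, 0.90 and 0.91 and passed in each genotype.

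Among the box H/ACA proteins *Dkc1*, dyskerin, the pseudouridine synthase (ENSMUSG00000031403, chromosome X, 75095854 to 75109777), had 62.6 and 66.2 CPM with EtOH and 94.4 and 105 CPM with 4-HT in AC, and 64.9, 48.3, 69.5 and 72.1 CPM and 95.7, 95.8, 93.1 and 103 CPM in PAC. In BAC it had 62.3, 56.9, 67.6 and 58.0 CPM and 131, 134, 137 and 125 CPM, and in BPAC 57.7, 66.5, 53.7 and 63.1 CPM and 153, 136, 119.7 and 132 CPM. Every BAC and BPAC sample with 4-HT lay above every AC and PAC sample with 4-HT. *Gar1* and *Nhp2*, which complete the particle with *Nop10*, rose by 1.05 and 0.90 in BAC, by 1.09 and 1.01 in BPAC and by 0.81 and 0.79 in PAC. In AC *Gar1* rose by 0.66, and *Nhp2* had 0.55, which did not pass (edgeR, adjusted p = 0.0465, and 0.00385 with the block). *Nop10*, which encodes a small protein of the same particle, had the lowest average change, with 0.37 ± 0.16 (SE), 0.50 ± 0.11, 0.67 ± 0.11 and 0.75 ± 0.11 in the same order of genotypes, and did not pass in AC (edgeR, adjusted p = 0.104).

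The small subunit factors rose in 8 of 21 cases in AC (13 with the block), 19 in PAC, and 20 in both BAC and BPAC. *Nol10*, a processome protein (ENSMUSG00000061458, chromosome 12, 17348458 to 17430095), had 13.5 and 11.3 CPM with EtOH and 18.2 and 20.8 CPM with 4-HT in AC, and 11.0, 10.5, 11.4 and 11.2 CPM and 19.99, 19.7, 19.1 and 21.1 CPM in PAC. In BAC the levels were 13.7, 12.7, 13.4 and 11.0 CPM and 31.3, 27.5, 33.9 and 31.0 CPM, and in BPAC 11.1, 13.7, 12.7 and 11.7 CPM and 34.8, 30.5, 27.5 and 32.1 CPM. With EtOH the genotypes overlapped, and with 4-HT each BAC and BPAC sample exceeded each AC and PAC sample. *Wdr43*, of the early-binding UtpA complex (ENSMUSG00000041057, chromosome 17, 71615895 to 71659031), had 70.9 and 71.9 CPM with EtOH and 113 and 132 CPM with 4-HT in AC, and 67.9, 59.9, 80.5 and 81.1 CPM and 111, 109, 104 and 123 CPM in PAC. The BAC values were 77.5, 62.6, 80.9 and 75.2 CPM and 160.5, 162, 190.3 and 165 CPM, and in BPAC 65.9, 74.6, 72.9 and 65.4 CPM and 183, 161, 160.1 and 177 CPM. It showed the same separation as *Nol10*. *Utp20*, a large scaffold of the processome, varied between cultures. It had 30.1 and 37.1 CPM with EtOH and 35.1 and 50.4 CPM with 4-HT in AC, and 35.2, 22.8, 50.5 and 32.9 CPM and 33.1, 32.6, 43.7 and 56.3 CPM in PAC. In BAC it had 35.3, 31.6, 48.4 and 32.7 CPM and 44.0, 43.0, 80.7 and 66.2 CPM, and in BPAC 30.8, 30.2, 51.6 and 36.0 CPM and 54.0, 46.7, 53.5 and 68.8 CPM. Its treatments overlapped in every genotype, and its standard errors, 0.24 in PAC, BAC and BPAC and 0.34 in AC, were the largest of the 56 members.

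The large subunit factors rose in 10 of 16 cases in AC and in 16 of 16 in PAC, BAC and BPAC. *Rrp1b*, a nucleolar protein of large subunit maturation (ENSMUSG00000058392, chromosome 17, 32036100 to 32062865), had 25.6 and 37.2 CPM with EtOH and 54.1 and 64.6 CPM with 4-HT in AC, and 29.7, 23.2, 41.3 and 40.9 CPM and 53.5, 54.8, 52.9 and 59.4 CPM in PAC. In BAC the levels were 30.8, 23.9, 36.3 and 35.6 CPM and 77.0, 80.4, 91.0 and 82.9 CPM, and in BPAC 28.2, 36.2, 33.1 and 37.0 CPM and 86.8, 80.0, 76.1 and 84.0 CPM. Its folds were 1.89, 1.63, 2.62 and 2.43 in AC, PAC, BAC and BPAC (edgeR, adjusted p = 0.00515, 0.000865, 6.4e-08 and 1.58e-07), and without the duplicate 1 cultures the fold of *Rrp1b* in PAC was 1.37 (edgeR, adjusted p = 0.127). The genes of the PeBoW complex, which processes the large subunit precursor, were *Pes1*, *Bop1* and *Wdr12*, and their log2 changes were 0.94, 0.85 and 1.16 in BPAC, 0.84, 0.82 and 1.07 in BAC, 0.67, 0.57 and 0.64 in PAC and 0.66, 0.52 and 0.72 in AC, where *Bop1* did not pass (edgeR, adjusted p = 0.0355, and 0.00733 with the block). The helicase gene *Ddx18* had the smallest average change of the group, with 0.45 ± 0.16 (SE), 0.52 ± 0.11, 0.82 ± 0.11 and 0.87 ± 0.11 in the same order.

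For 10 members the change with 4-HT was larger where the *Braf* allele was present. The mean log2 change of the genotypes with the allele (BAC, BPAC) less that of those without (AC, PAC) was above 0 for 56 of 56 members, with a median of 0.36, beside -0.01 over all genes. It passed the threshold for these 10, beside 3.05% of all genes with a larger change. The fitted change was larger in BAC than in AC for 56 of 56 members and larger in BPAC than in PAC for 55. The comparison sets 4 donors with the allele against 3 without it.

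The 10 members were the processome genes *Nol10* (0.56 ± 0.11, SE), *Wdr43* (0.54 ± 0.11), *Wdr75* (0.43 ± 0.09), *Utp4* (0.54 ± 0.11), *Utp6* (0.44 ± 0.10) and *Nol11* (0.43 ± 0.10), with *Dkc1* (0.52 ± 0.11), the large subunit gene *Brix1* (0.44 ± 0.10), *Nolc1* (0.46 ± 0.11) and *Polr1b*, the second-largest subunit of RNA polymerase I (0.56 ± 0.14). Their adjusted p-values ran from 0.00108 for *Nol10* to 0.00656 for *Polr1b* (edgeR). *Wdr43*, *Wdr75*, *Utp4* and *Nol11* encode proteins of the UtpA complex and *Utp6* of the UtpB complex, which assemble on the 5′ end of the precursor. Other members that encode proteins of these complexes did not pass (edgeR), with differences of 0.57 ± 0.15 (SE, adjusted p = 0.0139) for *Utp15* and 0.45 ± 0.23 (adjusted p = 0.194) for *Heatr1* of UtpA, and 0.37 ± 0.10 (adjusted p = 0.0167) for *Utp18* of UtpB. With the block *Utp15* and *Utp18* passed (adjusted p = 0.00208 and 0.00322) and *Heatr1* did not (adjusted p = 0.0117). For *Nol10* the changes by culture were 0.43 and 0.88 in AC and 0.86, 0.91, 0.75 and 0.91 in PAC, beside 1.19, 1.12, 1.33 and 1.49 in BAC and 1.64, 1.15, 1.11 and 1.45 in BPAC. For *Polr1b* they were 0.80 and 0.77 in AC and 0.84, 1.12, 0.57 and 0.43 in PAC, beside 1.28, 1.37, 1.34 and 1.28 in BAC and 1.48, 1.502, 0.80 and 1.46 in BPAC. The cultures with and without the allele thus did not overlap for *Nol10* but did for *Polr1b*, through duplicate 2 of BPAC donor 1. Each BAC and BPAC culture changed more than each AC and PAC culture for 11 members, beside 4.9% of all genes: *Brix1*, *Dkc1*, *Nip7*, *Nol10*, *Nol11*, *Nop58*, *Utp4*, *Utp6*, *Wdr12*, *Wdr43* and *Wdr75*.

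**Figure D4:**
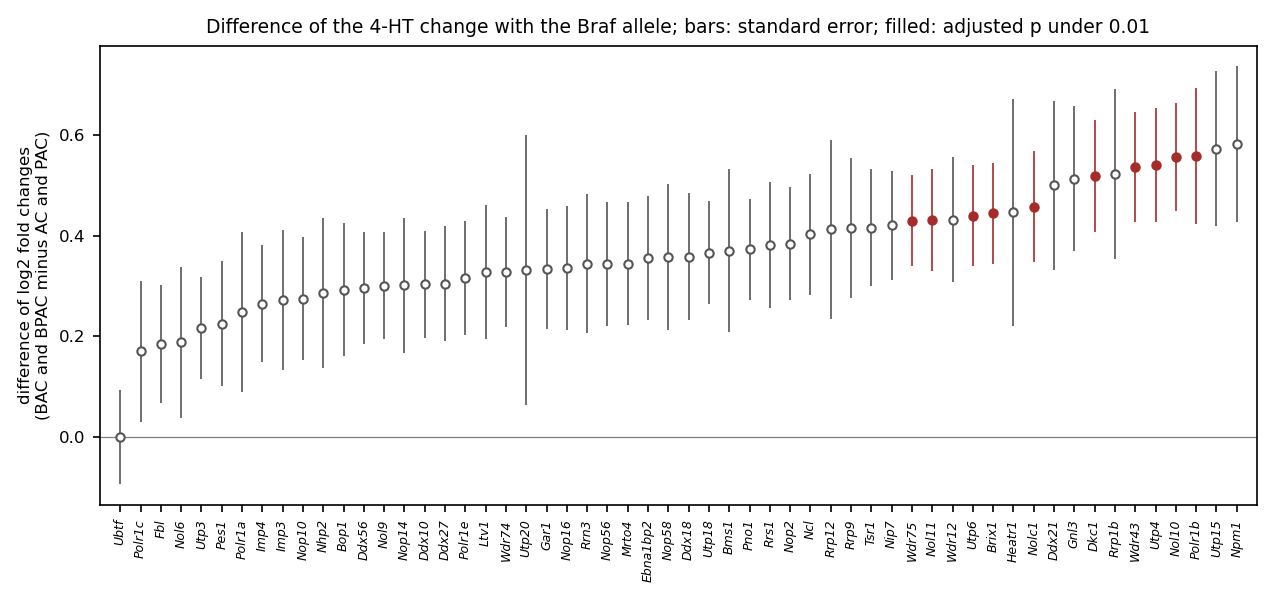
Difference of the 4-HT change with the *Braf* allele for each member, as the mean log2 change of BAC and BPAC less the mean of AC and PAC, ordered by size; bars are standard errors and filled points have an adjusted p under 0.01. *Ubtf* lies at 0.00 and the 10 filled points between 0.43 and 0.56.

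How many members passed in this comparison depended on the fit. With the culture as a block 26 members passed, beside 6.51% of all genes, in a fit that pairs the duplicate 1 samples of PAC by label. Leaving out BAC replicate 2 or 4 gave 6 members each by edgeR, beside 270 and 331 of all genes, and leaving out BPAC replicate 1 gave 5, beside 294. In the main fit 413 of all genes passed with a larger change. Without AC replicate 1 or 2, which left 1 AC sample per treatment, the median difference was 0.37, with 55 and 56 of 56 above 0. Without the duplicate 1 cultures of PAC 15 members passed, beside 2.79% of all genes, and the median difference was 0.43. Within duplicate 1 the median difference was 0.34, and within duplicate 2 it was 0.40. Of 56 differences 55 and 56 were above 0. In these fits AC had 1 sample per treatment, which was assumed to vary like the other groups. The 4-HT samples of duplicate 1 from BAC and BPAC also had larger totals (37438687 to 40068718 counts) than any other sample (at most 30306835), and the part of depth in the difference was not tested.

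No member passed for the *Trp53* allele or between EtOH-treated organoids. For the *Trp53* allele, as the mean change of PAC and BPAC less the mean of AC and BAC, 0 of 56 members passed by edgeR, with or without the block, by limma-voom or by DESeq2, and 0 had an unadjusted p under 0.05 by edgeR, beside 0.0148% of all genes past the threshold in either direction. The median difference was 0.01, with 32 of 56 above 0, and the members lay between -0.16 and 0.19. Without the duplicate 1 cultures of PAC the median was -0.06, with 14 of 56 above 0, and 0 members passed or had an unadjusted p under 0.05 by edgeR. With EtOH, the levels of BAC and BPAC minus those of AC and PAC had a median of 0.06 over the members and ran from -0.24 to 0.26. There 0 members passed by edgeR, limma-voom or DESeq2, and 4 had an unadjusted p under 0.05 by edgeR, beside 0.0296% of all genes past the threshold.

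*Myc* is no member but is known to drive the pathway, and it was higher with 4-HT in every culture. It had 102 and 147 CPM with EtOH and 308 and 285 CPM with 4-HT in AC, and 84.0, 82.4, 141 and 153 CPM and 317, 323, 239 and 268 CPM in PAC. The BAC values were 98.0, 86.9, 141 and 108 CPM and 450.4, 408, 359 and 340.5 CPM, and in BPAC 105, 138, 125 and 137 CPM and 409.7, 423, 331 and 342 CPM. The treatments did not overlap, and *Myc* rose in each genotype, by 1.25 ± 0.26 (SE), 1.32 ± 0.18, 1.84 ± 0.19 and 1.58 ± 0.19 on the log2 scale (edgeR, adjusted p = 0.00219, 1.64e-05, 1.86e-08 and 1.27e-07). Its changes in PAC were 1.91 and 1.97 in the duplicate 1 cultures and 0.77 and 0.81 in duplicate 2, and without duplicate 1 the PAC change of *Myc* was 0.79 ± 0.20 (SE, edgeR, adjusted p = 0.031). *Myc* also changed more in duplicate 1 than in duplicate 2 in AC (1.59 against 0.96). The same held in BAC (2.20 and 2.23 against 1.35 and 1.66) and BPAC (1.97 and 1.61 against 1.41 and 1.32). Its change differed by 0.42 ± 0.20 with the *Braf* allele, which did not pass (edgeR, adjusted p = 0.167, and 0.193 with the block). Without the duplicate 1 cultures of PAC this difference for *Myc* was 0.69 ± 0.17 (edgeR, adjusted p = 0.0115).

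Other genes of the pathway, not among the 56, also rose, in most lists at shares above those of all genes (3%, 11.2%, 20.3% and 22% in AC, PAC, BAC and BPAC). Of 31 other small subunit factors 8, 18, 26 and 28 rose in AC, PAC, BAC and BPAC, and of 41 other large subunit factors 12, 26, 35 and 35. The RNA exosome, which trims precursor RNA from its end, had 4, 9, 12 and 12 of 13 genes higher. Of the 8 snoRNP assembly genes 2 rose in AC and 8 in each other genotype. The 8 other RNA polymerase I, SL1 and nucleolar genes were nearer to those shares, with 0, 2, 3 and 2 genes higher, which in BPAC is 25% (in AC 0 by edgeR and limma-voom, 2 by DESeq2, and 2 at an unadjusted p under 0.05 by edgeR), and had median log2 changes of 0.06, 0.12, 0.26 and 0.30. With the block the large subunit list had 19 genes higher in AC, and the list with RNA polymerase I genes had 1 in AC and 4 in BPAC. Of the 101 genes of these lists together 63 rose in PAC, and without its duplicate 1 cultures 1 did, with 59 at an unadjusted p under 0.05 by edgeR and a median of 0.38.

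Ribosomal proteins, of which the cytosolic ones are the cargo of this pathway, had smaller median changes. Of 81 genes of cytosolic ribosomal proteins 1, 2, 7 and 28 rose in AC, PAC, BAC and BPAC, and their median log2 changes were -0.01, 0.24, 0.23 and 0.38. The shares that rose, 1.23%, 2.47% and 8.64% in AC, PAC and BAC, lay below those of all genes, and the share in BPAC, 34.6%, lay above. Many of these genes have processed copies, so reads may be split between near-identical sequences. Of 77 genes of mitochondrial ribosomal proteins 1, 3, 25 and 33 rose (1.3%, 3.9%, 32.5% and 42.9%), with medians of 0.10, 0.15, 0.21 and 0.30. With the block 4, 16 and 43 cytosolic genes rose in PAC, BAC and BPAC, and 13 mitochondrial genes in PAC, while 3 mitochondrial genes fell in BAC. In PAC, 0 genes of either list passed without the duplicate 1 cultures by edgeR, where 1 and 5 had an unadjusted p under 0.05.

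**Figure D5:**
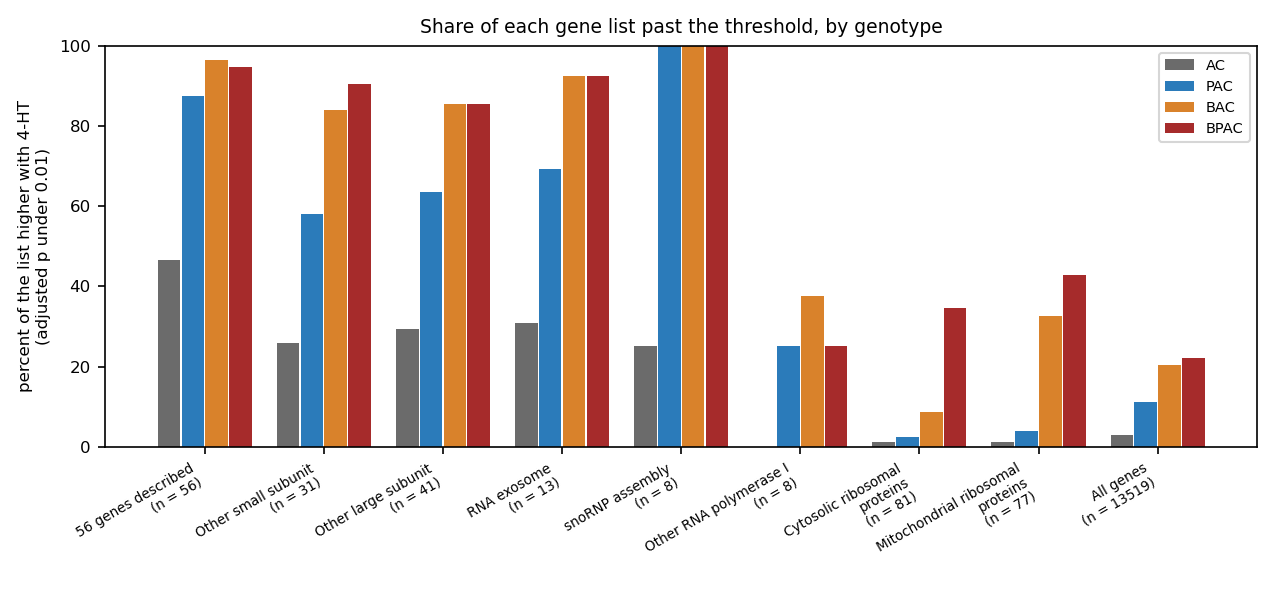
Percentage of each gene list that was higher with 4-HT (adjusted p under 0.01), by genotype, with the number of genes of each list under its name; bars start at 0. The 56 genes described reach 26, 49, 54 and 53 genes in AC, PAC, BAC and BPAC, and the cytosolic ribosomal proteins 1, 2, 7 and 28 of 81.

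Markers of dividing cells, of colonocytes and of epithelium moved with these changes. The summed level of 7 proliferation markers, among them *Mki67* and *Top2a*, was 579 to 738 CPM with EtOH and 896 to 1372 CPM with 4-HT, and 2, 5, 6 and 7 of them rose in AC, PAC, BAC and BPAC (4 in AC with the block). The 5 colonocyte markers, among them *Car1* and *Slc26a3*, had summed levels of 14218 to 24001 CPM with EtOH and 2805 to 10495 CPM with 4-HT, and 2, 3, 4 and 5 of them fell (5 in PAC with the block). Of the 7 epithelial markers, which include *Krt20* and *Vil1* of differentiated cells, 1, 3, 4 and 4 fell in AC, PAC, BAC and BPAC, and no other passed. With the block 3, 4, 4 and 5 of them fell, and 1 rose in each genotype but AC. The 5 goblet cell markers went both ways. In PAC 1 rose and 0 fell, and their summed level overlapped between EtOH (1602 to 2148 CPM) and 4-HT (1617 to 1948 CPM). In BAC and in BPAC 2 fell and 0 rose, and in AC 0 passed by edgeR, DESeq2 or limma-voom and 0 had an unadjusted p under 0.05 by edgeR. With the block 1, 2, 3 and 3 goblet cell markers fell in AC, PAC, BAC and BPAC, and 1 rose in PAC and in BPAC. In PAC without its duplicate 1 cultures 0 proliferation, colonocyte, epithelial and goblet cell markers passed by edgeR, with 5, 4, 3 and 1 at an unadjusted p under 0.05. The part of these cell types in the rise of the members was not tested.

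A feature of the members that the list did not use is that 7 of them hold annotated small nucleolar RNA genes within their bounds, 21 in all. *Nop56* holds 5, *Nop58* 4, *Ncl*, *Gnl3* and *Wdr43* 3 each, *Tsr1* 2 and *Dkc1* 1. Whether reads of these RNAs entered the counts of their host genes was not tested. *Tsr1*, a small subunit factor, shares 32.3% of its exon bases with *Srr*, and its value is uncertain for that reason, since the counting is not stated to use strand.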

How the data were processed

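Bulk RNA-seq of colon organoids was analysed in 28 samples. The authors deposited raw counts per gene, without normalization, from reads aligned to GRCm38/mm10 (Trimmomatic 0.39 and STAR 2.5.2b in the submitters' processing notes). The counting program, its annotation and its strandedness are not given in the sources used here. Identifiers were matched to GENCODE vM21 for 13479 of 13519 genes.

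Members, gene lists and the rule for named genes were chosen with earlier results of these data known. By the rule, each role group gave the genes with the highest mean CPM and the highest and lowest mean change, to which members that differed with the *Braf* allele and *Myc* were added. Other genes were named after their values were seen.

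Counts were scaled by TMM and tested with edgeR 4.0.16 (R 4.3.3), quasi-likelihood, over all genes and the 8 groups, with a Benjamini-Hochberg threshold of 0.01. TMM and this threshold follow the study's methods, but the test does not: the study used limma. Culture changes used log2 CPM with a prior count of 2. Alternatives were limma-voom (limma 3.58.1), DESeq2 1.42.0, its size factors, library size alone, filterByExpr, a threshold of 0.05, the culture as a block, donors summed, each duplicate alone and cultures left out. Samples of a culture share donor and duplicate number by label, and their deviations from the group means correlated (mean r = 0.416, range 0.245 to 0.532, 12 cultures). In 11 of the 12 the EtOH sample correlated more with the 4-HT sample of its own culture than with others of the genotype. The exception was PAC replicate 1 (r = 0.245), and the donors of the duplicate 1 4-HT samples of PAC are unclear. Duplicate 1 was assumed for 1 label that lacks the number. In simulated counts edgeR recovered 6% of 1.5-fold and 41% of 2-fold changes in AC, and 34% and 66% in BPAC. A change of the same size thus passed less often in AC, which had fewer cultures. Counts carry no molecular identifiers, so depth limits counting error only.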

Additional observations from a re-analysis of the deposited data

Results flagged for a closer look

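With the *Braf* allele, the 4-HT change (BAC and BPAC minus AC and PAC, log2) differed past the edgeR threshold in 10 members: *Nol10* by 0.556, *Wdr43* by 0.537, *Wdr75* by 0.429, *Utp4* by 0.54, *Dkc1* by 0.519, *Brix1* by 0.444, *Utp6* by 0.44, *Nol11* by 0.431, *Nolc1* by 0.458 and *Polr1b* by 0.558. Of all genes, 3.05% passed with a larger change. The count of members depended on the fit, with 26 by the block and 5 with library size alone or without BPAC replicate 1.

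In 5 of 75 groups of 4 cultures, 1 culture lay far from the other 3 by Dixon's criterion, where chance alone marks about 1 in 20 groups. In BPAC replicate 3, duplicate 2 of donor 1, the log2 change was the lowest of 4 for *Bop1* (0.493) and *Polr1b* (0.802). In BPAC replicate 1 it was the highest for *Rrp1b* (1.62). In BAC it was the highest for *Brix1* in replicate 2 (1.26) and for *Utp6* in replicate 4 (0.746).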

How the results depend on the processing

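In BAC and BPAC the number of members higher with 4-HT stayed within 1.5 times of 54 and 53 under each alternative run. In AC, 26 became 43 at a threshold of 0.05, 42 with the replicate block, 47 with library size alone, 16 with the counts of each donor summed, 13 in duplicate 1 alone and 0 in duplicate 2 alone (43 at an unadjusted p under 0.05); without 1 culture it ran from 0 (either AC culture) to 33. In PAC, 49 (beside 1511 of all genes higher) became 1 without the duplicate 1 cultures of PAC (22, or 0.163%). Without 1 culture it ran from 32 (PAC replicate 2, beside 691) to 50 (BPAC replicate 3, beside 1720). In duplicate 2 alone, where AC had 1 sample per treatment, the median PAC change of the members was 0.46, with 56 of 56 above 0. For the difference with the *Braf* allele, 10 (beside 413 of all genes) became 26 with the block (880), 20 with DESeq2 (752) and 5 with library size alone (272). At 0.05 it was 25. Without 1 culture of PAC, BAC or BPAC it ran from 5 (BPAC replicate 1, beside 294) to 14 (PAC replicate 2, beside 420). With 1 AC sample per treatment, the median difference was 0.41 with donors summed and 0.34 and 0.40 in duplicates 1 and 2 alone. It was 0.37 without either AC culture, beside 0.36 in the main fit. The duplicate alone and left-out fits hold fewer samples, and a lone AC sample per treatment was assumed to vary like the other groups; the cause of the other shifts was not tested. With the block the counts of members in PAC, BAC and BPAC were 54, 55 and 55; the counts of role groups and other lists that it moved by over 1.5 times stand beside them above.

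Library size alone moved the median of all genes upward, by 0.22 (AC), 0.22 (PAC), 0.17 (BAC) and 0.21 (BPAC), and turned 406 higher and 574 lower genes in AC into 1511 and 302; members then had medians of 0.84, 0.84, 1.14 and 1.19. Among the named genes only *Ubtf* changed sign: in BPAC without replicate 4 (-0.0272; 0.122 at most without 1 culture), and in the *Braf* difference with duplicate 1 alone (-0.0228), library size alone (-0.0335), limma-voom (-0.000849), the block (-0.000846) and cultures left out (-0.0330 to 0.0415). Values of single genes under the alternatives are not printed for the *Trp53* allele or between EtOH samples.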
